A study of Bos taurus with 2 samples.

Results

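DCC, AUTS2, CTNNA2, TENM4, NLGN1 and NCAM1 are 6 genes best known from the growing nervous system, and all 6 were taken from the 35643 gene features listed in both bovine (Bos taurus) single-nucleus libraries of the series. They were chosen by name, with earlier results of these data in view, because they led a group of blastoid nuclei. Their levels in that group are therefore a description, not a test. A blastoid is a blastocyst-like structure that self-assembles from cultured stem cells. The blastoid library came from wild-type (WT) lines seeded per microwell as 8 bEPSCs, 8 bXENs and 16 bTSCs in ACL medium, a Neurobasal-based medium with N2 and B27 supplements, LIF at 20 ng/ml, activin A at 10 ng/ml, Chir99021 and the CEPT cocktail. Feeder fibroblasts (iMEF) had been depleted by straining and plating before the lines were mixed. The other library came from WT blastocysts on day 8. Both materials were frozen before nuclei were isolated, and both libraries used the Chromium 3' kit, version 3.1. Neither the number of structures pooled per library nor the way the embryos were made is given in the labels. Each group had 1 library, so no value below has a replicate check, no test was possible, and every interval covers counting error only.

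Growing axons steer by membrane receptors that read ligands in their surroundings. DCC is a receptor for netrins and is known for drawing commissural axons toward the midline. NCAM1 is an immunoglobulin-family adhesion molecule that can carry polysialic acid, TENM4 is a teneurin that binds latrophilins on neighbouring cells, and NLGN1 is the neuroligin that binds neurexins across the synapse. CTNNA2 is the neural alpha-catenin, which links cadherin-catenin complexes to actin, and AUTS2 is a nuclear partner of a Polycomb complex that also acts on the actin cytoskeleton. All 6 are very long genes, made up mostly of introns. Whether intronic reads were counted is not given in the sources used here.

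Values are counts of unique molecular identifiers (UMIs, 1 per captured RNA molecule), given as CPM, the UMIs of a gene per 1000000 UMIs of a class. Of 1914 kept blastoid barcodes, 286 were deep, with at least 4000 UMIs, and of 827 kept blastocyst barcodes 688 were deep. Classes came from clusters made without the 6 genes, the listed genes and the marker genes. The deep blastoid nuclei fell into 147 trophectoderm-like nuclei (median 15091 UMIs) and 139 nuclei in a cluster that markers did not name (median 11063 UMIs). Because LMX1A and LDB2 led its genes by fold, it is called the LMX1A/LDB2 class here. A further 1619 blastoid barcodes were ribosomal-rich and shallow, with a median of 1922 UMIs. The blastocyst gave 348 hypoblast-like, 82 epiblast-like and 258 trophectoderm-like deep nuclei. The libraries shared 1 barcode as deposited and 0 after filtering.

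The class that held most UMIs of these genes carried some neural markers and lacked others. In the LMX1A/LDB2 class, 10 of 12 neural markers with at least 20 UMIs were at least 2-fold higher than in the trophectoderm-like blastoid nuclei, as were 19.5% of 13190 genes, and the 22 listed neural markers summed to 2614 CPM against 194 CPM. PAX3, a transcription factor of the dorsal neural tube and neural crest, alone gave 1361 CPM, and the synaptic vesicle gene SYT1 gave 383 CPM. However, SOX1, OLIG2, GFAP and SOX10 had 0 UMIs in the class, where a count of 0 allows up to 1.58 CPM. The neuronal microtubule gene DCX had 7 UMIs, and NEUROD1 and NEUROG2 had 1 UMI each. STMN2 and TUBB3, which mark young neurons, were at 365 and 12.7 CPM in the class but at 449.5 and 38.2 CPM in the ribosomal-rich barcodes. Markers of other types were present too: 27 hypoblast markers summed to 1250 CPM in the class and 947 CPM in the trophectoderm-like nuclei, with only SOX7 at 0 UMIs in the class, and 13 fibroblast markers summed to 102 and 64.9 CPM, with DCN at 0 UMIs in the class. The 21 trophectoderm markers summed to 2091 and 3896 CPM, with GCM1 at 0 UMIs in both. The 14 measured epiblast markers summed to 692 and 440 CPM, of which LIN28B gave 512 and 188 CPM, with FGF4 and KLF17 at 0 UMIs in the class. The part of other cell types in the levels of the 6 genes was not tested.

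DCC, the netrin receptor (ENSBTAG00000048378), had 4827 UMIs in the LMX1A/LDB2 class, or 2547 CPM (95% interval 2475 to 2619). Per nucleus it ran from 0 through a median of 1033 to 29954 CPM, the widest spread of the 6. At least 1 DCC UMI was seen in 124 of 139 nuclei. The 14 nuclei with the most DCC UMIs held 54.1% of them, against 25.6% to 37.6% for the same share of nuclei ranked on each of the other genes, so a few nuclei carried much of the DCC signal. Outside this class DCC gave 26.6 CPM in the trophectoderm-like and 70.8 CPM in the ribosomal-rich blastoid barcodes. In the blastocyst it stood at 13.0, 6.48 and 5.78 CPM in its trophectoderm-like, hypoblast-like and epiblast-like classes, and the intervals of neighbours in this order overlap.

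**Figure D1:**
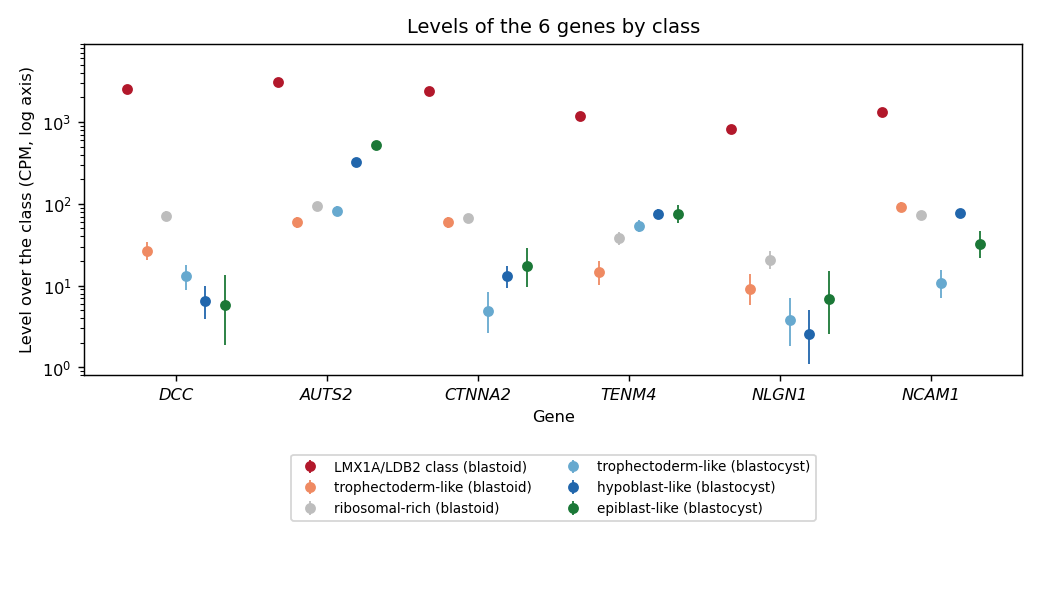
Level of each gene in 6 classes of barcodes, in CPM on a log axis, with points for the class sum and bars for the exact Poisson 95% interval (counting error only). The LMX1A/LDB2 class is highest for all 6 genes, at 821 to 3047 CPM, and AUTS2 has the highest level of any blastocyst class, 524 CPM in epiblast-like nuclei.

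The adhesion genes were steadier from nucleus to nucleus. NCAM1 (ENSBTAG00000005710) gave 1320.0 CPM in the LMX1A/LDB2 class and ran from 0 through 1075 to 8917 CPM per nucleus. The median nucleus of every other deep class had no NCAM1 UMI. Its order was then 92.3 CPM in trophectoderm-like blastoid nuclei, 77.1 in hypoblast-like, 72.1 in ribosomal-rich, 32.4 in epiblast-like and 10.7 CPM in trophectoderm-like blastocyst nuclei, and the intervals of the first 3 of these overlap. A single trophectoderm-like blastoid nucleus held 110 of the 222 NCAM1 UMIs of its class, and without its 2 highest nuclei the class stood at 39.1 CPM.

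TENM4 (ENSBTAG00000007439), the teneurin, gave 1194 CPM and ran from 0 through 894 to 5037 CPM per nucleus of the LMX1A/LDB2 class. Next came hypoblast-like and epiblast-like nuclei at 75.4 and 75.2 CPM, which do not differ beyond counting error. Trophectoderm-like blastocyst nuclei stood at 53.3 CPM, ribosomal-rich barcodes at 38.2 and trophectoderm-like blastoid nuclei at 14.6 CPM. The intervals of the trophectoderm-like blastocyst nuclei overlap those of both the epiblast-like nuclei and the ribosomal-rich barcodes. TENM4 was thus lowest in the trophectoderm-like class of the blastoid. With classes gated on marker UMIs, however, it was higher there than in the trophectoderm-like blastocyst nuclei (log2 1.73). That gate also took some LMX1A/LDB2-class nuclei into the blastoid class.

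NLGN1, the neuroligin (ENSBTAG00000031891), gave 821 CPM (781 to 863) in the LMX1A/LDB2 class, with 0, 599 and 5385 CPM in the lowest, median and highest nucleus. It was close to the detection limit elsewhere in deep nuclei: 22 UMIs in trophectoderm-like blastoid nuclei (9.15 CPM) and 8, 6 and 10 UMIs in hypoblast-like, epiblast-like and trophectoderm-like blastocyst nuclei. These last 3 levels, 2.59, 6.94 and 3.81 CPM, have overlapping intervals. Ribosomal-rich barcodes stood between, at 20.9 CPM.

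CTNNA2, the neural alpha-catenin (ENSBTAG00000031669), gave 2394 CPM (2324 to 2464) and ran from 0 through 2252 to 6513 CPM per nucleus, the narrowest upper range relative to the median of the 6. Ribosomal-rich barcodes and trophectoderm-like blastoid nuclei followed at 66.4 and 59.5 CPM, with overlapping intervals. Epiblast-like and hypoblast-like nuclei stood at 17.4 and 13.0 CPM, again overlapping, and trophectoderm-like blastocyst nuclei at 4.95 CPM (13 UMIs).

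AUTS2, the nuclear regulator (ENSBTAG00000002083), was the only one of the 6 seen in every nucleus of the LMX1A/LDB2 class, 139 of 139. It gave 3047 CPM (2969 to 3127), with 360.4, 3001 and 12706 CPM in the lowest, median and highest nucleus. It was also the only one with a median above 0 in embryo classes: 360.2 CPM in epiblast-like nuclei, 72 of 82 of which had a UMI, and 207.5 CPM in hypoblast-like nuclei, 261 of 348. Summed levels were 524 CPM (477 to 575) in epiblast-like and 321 CPM (301 to 341) in hypoblast-like nuclei. Ribosomal-rich barcodes, trophectoderm-like blastocyst nuclei and trophectoderm-like blastoid nuclei followed at 94.2, 82.3 and 59.5 CPM, the first pair with overlapping intervals. AUTS2 was thus seen in most epiblast-like and hypoblast-like nuclei as well, at a lower level than in the blastoid class.

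**Figure D2:**
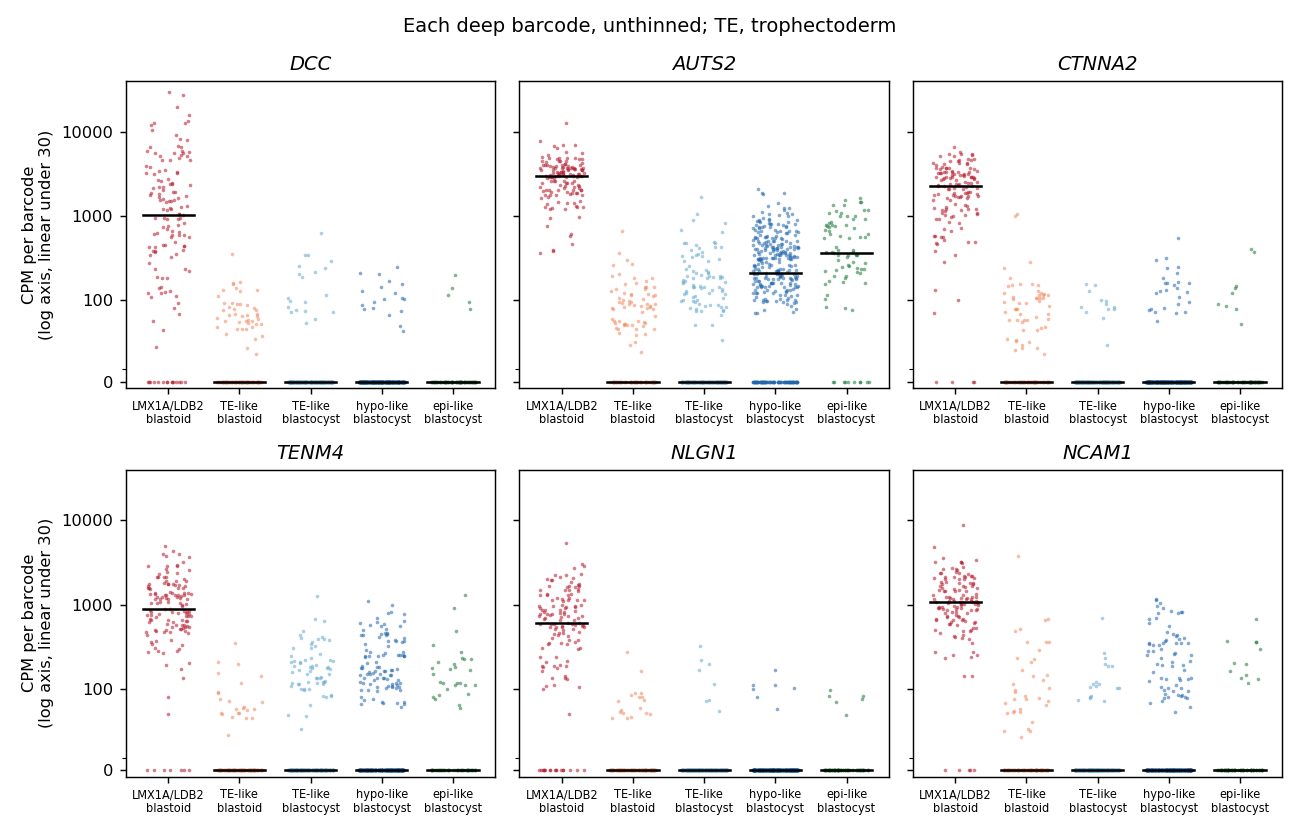
CPM of each gene in every deep nucleus of 5 classes, on an axis that is logarithmic above 30 CPM and linear below, with black lines at class medians. Medians lie above 0 for all 6 genes in the LMX1A/LDB2 class and, outside it, only for AUTS2 in hypoblast-like and epiblast-like nuclei; DCC spreads furthest, from 0 to 29954 CPM.

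Within the blastoid library, all 6 genes were at least 2-fold higher in the LMX1A/LDB2 class than in the trophectoderm-like nuclei, where 19.5% of 13190 genes with at least 20 UMIs were (16.9% were at least 2-fold lower). The genes were picked for this contrast, so nothing is read from the count. DCC was 95.7-fold higher (74.8 to 124), NLGN1 89.8-fold (59.1 to 144), TENM4 82.0-fold (58.8 to 118), AUTS2 51.2-fold (43.4 to 60.9), CTNNA2 40.3-fold (34.1 to 47.9) and NCAM1 14.3-fold (12.5 to 16.5). DCC, NLGN1 and TENM4 were among the 10 highest ratios of 6721 genes with a symbol and at least 100 UMIs, at ranks 3, 5 and 7 when counts under 3 are raised to 3, beside SRGAP3, a Slit-Robo GTPase-activating protein (145-fold, 76.3 to 319), and MLLT3 (102-fold, 79.1 to 135). NCAM1 ranked 209. Leaving out 2 trophectoderm-like nuclei in which the 6 genes together passed 2000 CPM gave 73.7-fold for CTNNA2 and 31.2-fold for NCAM1. When classes were instead gated on GATA2 and GATA3 UMIs per barcode (155 and 89 nuclei), the 6 ratios were 4.87-fold to 9.13-fold, all in the same direction. The gate called 155 of the 286 deep nuclei trophectoderm-like where clusters gave 147, so it took in some LMX1A/LDB2-class nuclei. How many was not counted.

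**Figure D3:**
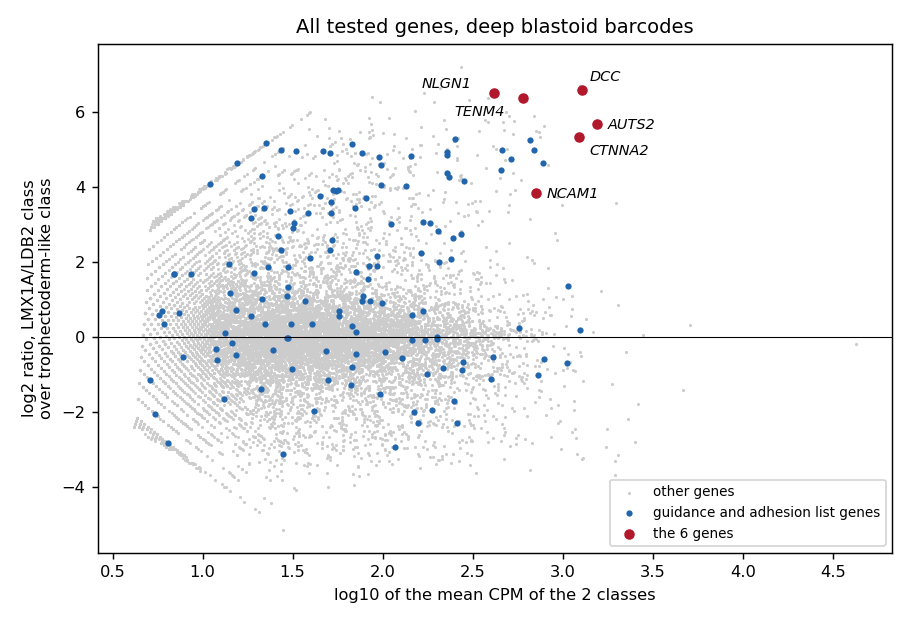
Each point is a gene with at least 20 UMIs in the 2 deep blastoid classes: the log10 of its mean CPM (x) and the log2 ratio of the LMX1A/LDB2 class over the trophectoderm-like class (y), with the listed guidance and adhesion genes in blue and the 6 genes in red. The 6 genes sit at log2 ratios of 3.84 to 6.58 and at high mean levels, while listed genes lie on both sides of 0.

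The LMX1A/LDB2 class held 25.4% of the kept blastoid UMIs but 84.8% (NCAM1) to 94.7% (NLGN1) of the UMIs of these genes. Ribosomal-rich barcodes had 2.54% to 5.46% of the class's level. The leading genes of the class that were not chosen, SRGAP3, MLLT3, LDB2, PKNOX2 and CACNA1A, stood in those barcodes at 2.34% to 4.72% of their level in the class, a range that holds 5 of the 6 genes, with NCAM1 above it. In trophectoderm-like nuclei DCC, TENM4 and NLGN1 lay between 1.05% and 1.22% of their level in the class, AUTS2 and CTNNA2 at 1.95% and 2.48%, and NCAM1 at 6.99%. The share of this low signal that was free RNA was not tested.

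Co-detection was read after thinning each deep nucleus to 4000 UMIs. All 6 genes were then seen together in 81 of 139 LMX1A/LDB2-class nuclei (58.3%, exact binomial 95% interval 49.6% to 66.6%), and at least 4 in 134. Without thinning, all 6 were seen in 104 (74.8%). In the 147 trophectoderm-like blastoid nuclei, all 6 were seen together in 0 (a count of 0 allows up to 2.04%), 5 in 1 nucleus and none at all in 80. In the embryo, 0 of 348 hypoblast-like, 82 epiblast-like and 258 trophectoderm-like nuclei had 5 or more, which allows up to 0.862%, 3.66% and 1.16%, and AUTS2 was the gene seen most often, in 58.9%, 73.2% and 18.2% of nuclei. As a background for the thinned shares, DCC was seen in 79.9% of LMX1A/LDB2-class nuclei against 13.6% of trophectoderm-like blastoid and 5.04% of trophectoderm-like blastocyst nuclei, and NLGN1 in 79.9% against 4.76% and 1.16%. The unthinned median depths were 11063, 15091 and 8803.5 UMIs, and unthinned shares for DCC were 89.2%, 30.6% and 7.75%.

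**Figure D4:**
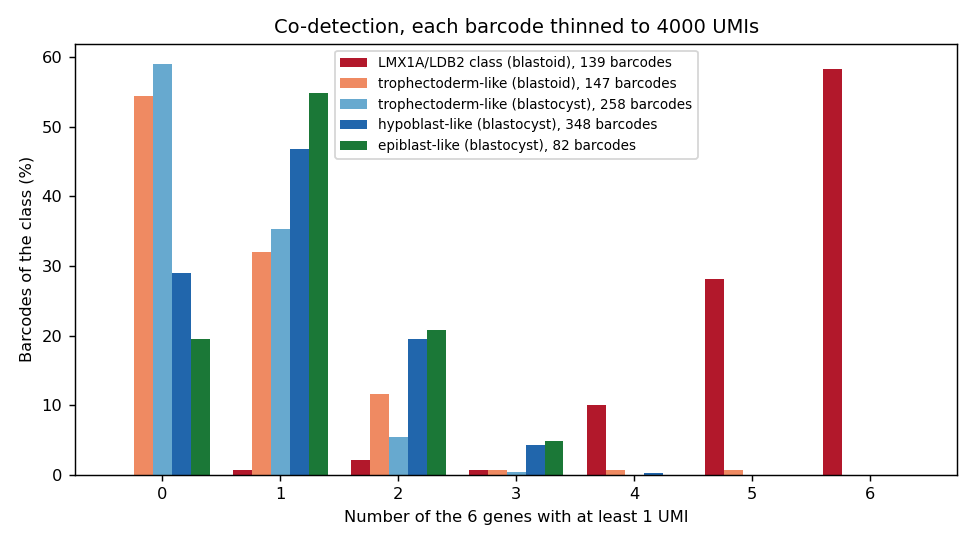
Share of nuclei (%) in each of 5 deep classes by the number of the 6 genes with at least 1 UMI, after thinning each nucleus to 4000 UMIs. LMX1A/LDB2-class nuclei pile up at 5 and 6 genes (28.1% and 58.3%), and nuclei of the other classes at 0 to 2.

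Over all 286 deep blastoid nuclei, each of the 15 pairs was seen together more often than the product of the single shares, 1.52 to 1.80 times, and the correlation of thinned log counts across nuclei ran from 0.49 (DCC with NLGN1) to 0.85 (AUTS2 with CTNNA2). These points come from 1 library and from 2 classes that differ in all 6 genes. Within the LMX1A/LDB2 class alone, pairs were seen together 0.98 to 1.04 times as often as the product, and correlations ran from -0.04 (TENM4 with NLGN1) to 0.39 (CTNNA2 with NCAM1). All 6 together were seen in 58.3% of the class, where the product of the 6 shares is 50.5%. With single shares of 79.9% to 100% there, a pair has little room above the product, and the 5 pairs with AUTS2, seen in every nucleus, are at 1 by construction. In sparse counts the weak correlations are no finding.

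The class was also split on DCC. After thinning, 111 nuclei of the class had a DCC UMI and 28 had none, at median unthinned depths of 11063 and 11025.5 UMIs. In all UMIs DCC stood at 3140.1 CPM in the first set and 84.2 CPM in the second, a gap that the split itself makes. AUTS2 had overlapping intervals in the 2 sets, at 3039 CPM (2952 to 3127) and 3083 CPM (2906 to 3267). CTNNA2 was at 2434 and 2227 CPM and TENM4 at 1169 and 1298 CPM. NLGN1 was lower in the second set, at 883 CPM (836 to 931) against 568 CPM (493 to 650.1), and NCAM1 was higher, at 1252 CPM (1196 to 1309) against 1602 CPM (1476 to 1737). Of the 28 nuclei without DCC after thinning, 28 had AUTS2, 24 CTNNA2, 23 TENM4, 23 NCAM1 and 19 NLGN1. Of the 111 with DCC, 111 had AUTS2, 107 CTNNA2, 101 TENM4, 108 NCAM1 and 92 NLGN1. All but AUTS2 were thus seen in a smaller share of the second set, NCAM1 despite its higher CPM there.

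Across the 286 deep blastoid nuclei, 11 of the 30 places among the 5 most like genes of each of the 6 were held by one another, which the choice of the genes for 1 of the 2 pooled classes favours. Within the class alone they held 6 of 30. By Pearson correlation of thinned log counts over 6721 genes, AUTS2 was among the 5 most like genes of all 5 others and CTNNA2 of 4. Of genes outside the 6, MLLT3, a chromatin reader of the super elongation complex, was in the lists of 4 (0.69 to 0.85), and B3GALT1 and TMEM132C were each in 3. DCC differed: its nearest were SRGAP3 (0.71), MLLT3 (0.69), the guanine nucleotide exchange factor KALRN (0.67), AUTS2 (0.67) and its own paralog NEO1 (0.66). Within the class the correlations were weak, 0.46 for the nearest gene to DCC, again SRGAP3, and no finding is read from them.

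The netrin pathway around DCC was uneven. NEO1, the paralogous receptor, stood at 893 CPM in the LMX1A/LDB2 class and 28.3 CPM in the trophectoderm-like blastoid nuclei (31.6-fold, 24.8 to 40.9). Among repulsive netrin receptors, UNC5C (12.9-fold) and UNC5D (27.5-fold) were higher in the class, and UNC5B was 4.90-fold lower, 53.3 against 261 CPM. The ligand NTN1 was 9.76-fold higher, at 93.4 CPM. DSCAM, another netrin receptor, was 7.71-fold lower. Slit signalling, the repellent system of the midline, showed SLIT2 at 1275 CPM (37.9-fold) with its receptors ROBO1 (867 CPM, 21.7-fold) and ROBO2 (537 CPM, 17.7-fold). Of 45 axon guidance genes with at least 20 UMIs (52 listed), 28 were at least 2-fold higher (19.5% of all genes were), 6 at least 2-fold lower (16.9% of all genes) and 11 between, with a median log2 ratio of 1.93 beside 0.01 over all genes.

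Partners of the adhesion genes followed in part. The polysialyltransferases ST8SIA2 (31.0-fold) and ST8SIA4 (14.6-fold), which put polysialic acid on NCAM1, and the NCAM-binding receptor FGFR1 (8.11-fold, 327 CPM) were higher, while the paralog NCAM2 had 17 and 14 UMIs and did not differ beyond counting error. Of 24 neural cell adhesion genes, 18 were at least 2-fold higher and 2 lower, beside 19.5% and 16.9% of all genes, with a median log2 ratio of 2.12. Among teneurins, TENM3 was 26.9-fold higher, at 994 CPM, TENM2 4.72-fold and TENM1 1.93-fold. Of their latrophilin receptors, ADGRL1 was 6.42-fold higher (3.78 to 11.5, 86 and 17 UMIs), ADGRL2 was at 1322 and 1175 CPM and ADGRL3 was 1.62-fold lower in the class, at 806 against 1308 CPM. Of 10 genes of the teneurin list, 5 were at least 2-fold higher and 1 lower, beside 19.5% and 16.9% of all genes.

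Synaptic adhesion genes were uneven too. NRXN3, a neurexin that binds neuroligins, was 28.6-fold higher at 440.0 CPM, whereas the paralog NLGN2 was at 29.5 and 30.4 CPM. PTPRD (30.4-fold) and IL1RAPL1 (16.1-fold), which pair across synapses, were higher, and the scaffold SHANK2 was 3.86-fold lower. Of 21 genes, 12 were at least 2-fold higher and 3 lower, beside 19.5% and 16.9% of all genes, with a median log2 ratio of 1.67.

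Cadherins and catenins lay on both sides. CDH2, neural cadherin, was 31.2-fold higher at 1335 CPM and CDH6 was higher too, at a log2 ratio of 4.64, while CDH1, epithelial cadherin, was 4.94-fold lower at 86.5 against 427 CPM. The neural cadherin CDH8 was 3.92-fold lower, at 16.9 against 66.1 CPM, and CDH3, an epithelial one, was 1.85-fold higher, at 129 against 69.9 CPM. The epithelial alpha-catenin CTNNA1 was 1.47-fold lower, 331 against 485 CPM, and CTNNA3 was at 42.2 and 54.5 CPM with an interval that includes no difference. CTNNB1 was at 195 and 205 CPM. Of 25 genes, 10 were at least 2-fold higher and 6 lower, beside 19.5% and 16.9% of all genes, with a median log2 ratio of 0.12.

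Most genes that AUTS2 works with lay within 2-fold between these classes. Of 16 genes of its Polycomb complex, its paralogs and its cytoskeletal partners, 1 was at least 2-fold higher (WASF1, 3.31-fold), 1 lower (DOCK1, 2.03-fold) and 14 lay between, beside 19.5% of all genes higher and 16.9% lower. PCGF3 and PCGF5, which define its complex, had ratios of 1.23 (0.965 to 1.56) and 1.27 (0.829 to 1.94), and its paralog FBRSL1 was 1.82-fold lower. Of the 11 measured paralogs of the 6 genes, 3 were at least 2-fold higher (NEO1, TENM2 and TENM3) and 0 lower. Read against the same 19.5% and 16.9%, 3 of 11 is near the background. NLGN4X was not analysed here.

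**Figure D5:**
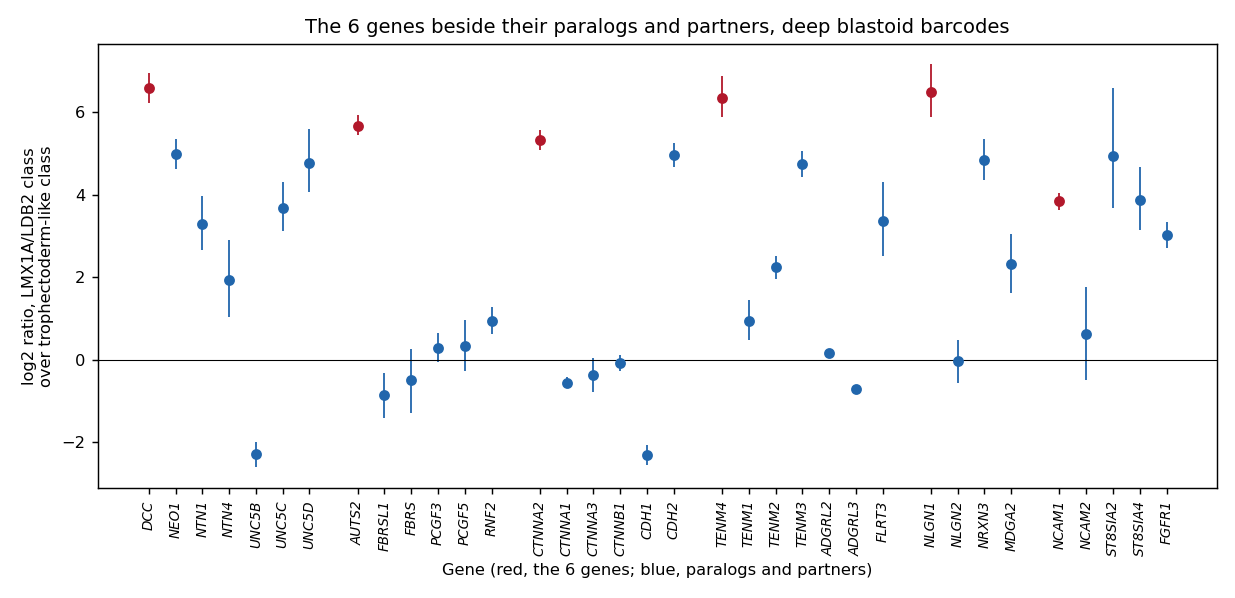
Log2 ratio of the LMX1A/LDB2 class over the trophectoderm-like blastoid class for each of the 6 genes (red) and its paralogs and partners (blue), with exact 95% intervals for counting error. The red points lie at 3.84 to 6.58, and the blue points run from CDH1 and UNC5B below 0 up to NEO1 at 4.98.

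In the blastocyst, the hypoblast-like nuclei differed from the trophectoderm-like ones in several of the genes. NCAM1 was 7.23-fold higher (4.87 to 11.1), AUTS2 3.90-fold (3.36 to 4.53) and CTNNA2 2.62-fold (1.37 to 5.33). TENM4 was 1.41-fold higher (1.14 to 1.76) and DCC 2.00-fold lower (1.12 to 3.67), on 20 and 34 UMIs. The 2 highest trophectoderm-like nuclei held 5 DCC UMIs each, and without them that class stood at 9.14 CPM against 6.48 CPM in hypoblast-like nuclei. NLGN1 had 18 UMIs in all and was not compared. Thus 3 of 5 genes were at least 2-fold higher, where 15.6% of 13365 genes were and 12.3% were lower. Epiblast markers moved the same way: 7 of 12 were at least 2-fold higher and 0 lower, and the 14 measured summed to 1200.0 CPM in hypoblast-like and 699 CPM in trophectoderm-like nuclei, with 1 at 0 UMIs in each. Their part in the ratios was not tested. NCAM1 in the trophectoderm-like class rested on its smaller and shallower cluster, which held 17 of the 28 UMIs in 35 deep nuclei, and against the larger cluster alone NCAM1 was 16.0-fold higher. The TENM4 ratio turned to 1.34-fold lower with finer clusters, and both it and the CTNNA2 ratio turned when classes were gated on marker UMIs.

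Within the hypoblast-like nuclei, TENM4 was the 1 gene of the 6 that differed beyond counting error between the 2 marker sides. NCAM1 was at 84.7 CPM (71.9 to 99.2) in 204 nuclei leaning to KIT, VWF and A2M and at 74.5 CPM (59.2 to 92.6) in 120 leaning to GATA4, NID1 and COL18A1. AUTS2 was at 310 CPM (285 to 337) and 348 CPM (313 to 385), and TENM4 at 85.8 CPM (72.9 to 100.4) and 57.9 CPM (44.5 to 74.1). The TENM4 ratio was 1.48 (1.10 to 2.02). CTNNA2 had 30 and 9 UMIs, a ratio of 1.99 (0.923 to 4.78), and DCC 9 and 10 UMIs, a ratio of 0.539 (0.194 to 1.47). NLGN1 had 5 and 2 UMIs.

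Epiblast-like nuclei had AUTS2 6.37-fold higher (5.40 to 7.52), CTNNA2 3.50-fold (1.56 to 8.00, 15 against 13 UMIs) and NCAM1 3.04-fold higher (1.73 to 5.32) than trophectoderm-like nuclei. TENM4 was 1.41-fold higher (1.03 to 1.91). DCC had 5 UMIs against 34, with an interval that includes no difference, and its sign changed with finer clusters. So 3 of 5 genes were at least 2-fold higher beside 14.7% of 11763 genes, and 1 lower beside 17.2%. Hypoblast markers moved with these genes: 8 of 13 with at least 20 UMIs were at least 2-fold higher and 1 lower, and the 27 listed summed to 2974 CPM in epiblast-like and 1384 CPM in trophectoderm-like nuclei, with 8 and 6 of them at 0 UMIs. The 14 measured epiblast markers summed to 1595 and 699 CPM, with 0 and 1 at 0 UMIs. The part of hypoblast RNA in the ratios was not tested. The median ratio of abundant genes in this comparison lay at a log2 of 0.25, and taking it off left AUTS2 at 5.37-fold. With finer clusters the epiblast-like class shrank to 16 nuclei and 1 gene was at least 2-fold higher. The hypoblast-like class then shrank to 179 nuclei, and 266 deep blastocyst nuclei were left unnamed. As reported, the hypoblast-like and epiblast-like classes shared markers, with PRDM14 at 56.7 and 61.3 CPM and HNF4A at 543 and 568 CPM. NANOG was at 17.5 and 119 CPM. These 2 classes were therefore not cleanly separated.

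Set against the embryo lineages, the LMX1A/LDB2 class had all 6 genes higher. Against hypoblast-like nuclei the ratios were 393-fold for DCC (254 to 644), 317-fold for NLGN1 (161 to 736), 185-fold for CTNNA2 (135 to 259), 17.1-fold for NCAM1, 15.8-fold for TENM4 and 9.51-fold for AUTS2. Against epiblast-like nuclei they were 440-fold for DCC (189 to 1356.5) on 5 embryo UMIs, 138-fold for CTNNA2, 118-fold for NLGN1, 40.7-fold for NCAM1, 15.9-fold for TENM4 and 5.81-fold for AUTS2 (5.28 to 6.41). In these comparisons 21.8% and 24.7% of genes were at least 2-fold higher, and 20% and 15.9% lower. Trophectoderm markers moved with the 6 genes, 12 of 17 at least 2-fold higher and 3 lower in each comparison, and the 21 measured summed to 2091 CPM in the class against 436 CPM in hypoblast-like and 408 CPM in epiblast-like nuclei, with 1, 2 and 7 at 0 UMIs. Epiblast markers were at least 2-fold lower in 8 of 12 and 8 of 11. Ribosomal protein genes took 2.59% of the UMIs of the class against 0.769% and 0.676%. The part of these in the ratios was not tested. The ratios were highest for DCC, CTNNA2 and NLGN1 in both comparisons, the genes with the lowest levels in these embryo classes. The comparisons share the blastoid class, so they are not independent.

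Between the libraries as a whole, deep blastoid over deep blastocyst nuclei gave 127-fold for DCC (98.1 to 167), 105-fold for CTNNA2, 101-fold for NLGN1, 14.2-fold for NCAM1, 8.03-fold for TENM4 and 5.46-fold for AUTS2. All 6 were at least 2-fold higher, where 19.9% of 16115 genes were and 14.8% were lower. Such a ratio mixes the share of nuclei in each class with the level per nucleus, and these cannot be told apart from library sums. Neural markers were at least 2-fold higher in 11 of 14 and lower in 1, and trophectoderm markers higher in 10 of 19 and lower in 2. Epiblast markers were higher in 2 of 13 and lower in 7, and hypoblast markers higher in 8 of 24 and lower in 9. Ribosomal protein genes took 2.52% of the UMIs of deep blastoid and 0.860% of deep blastocyst nuclei. The part of these shifts in the ratios was not tested.

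The trophectoderm-like class was the one class named in both libraries. In the blastoid, CTNNA2 was higher by a log2 ratio of 3.59 (6.80-fold to 23.1-fold) and NCAM1 8.65-fold higher (5.83 to 13.3) than in the blastocyst. NLGN1 was 2.40-fold higher (1.09 to 5.68) and DCC 2.05-fold higher (1.34 to 3.21), while AUTS2 was 1.38-fold lower and TENM4 3.66-fold lower (0.273 of the blastocyst level, 0.183 to 0.398). Thus 4 of 6 genes were at least 2-fold higher beside 16.9% of 13064 genes, and 1 lower beside 13.5%. Neural markers moved with them, 6 of 8 at least 2-fold higher and 0 lower, with a sum over 22 markers of 194 against 99.04 CPM and 6 and 11 of them at 0 UMIs. Of 22 hypoblast markers 10 were higher and 6 lower, with a sum over 27 of 947 against 1384 CPM and 0 and 6 at 0 UMIs. Ribosomal protein genes took 2.46% of the UMIs of the blastoid and 1.03% of those of the blastocyst class. The part of any of these in the ratios was not tested. Without the 2 trophectoderm-like blastoid nuclei in which the 6 genes passed 2000 CPM together, CTNNA2 was 6.56-fold, NCAM1 3.97-fold and DCC 1.95-fold higher, so 3 genes stayed past 2-fold. TENM4 was then 4.46-fold lower. Against the larger trophectoderm-like blastocyst cluster alone, NCAM1 was 19.2-fold higher. When classes were gated on marker UMIs, both directions turned, with AUTS2 and TENM4 higher in the blastoid at log2 ratios of 2.29 and 1.73, and DCC stood at 5.02. The gated blastoid class took in some LMX1A/LDB2-class nuclei, and their part in these ratios was not tested. The 4 genes that were higher stood at 1.05% to 6.99% of their level in the LMX1A/LDB2 class of the same library, as did TENM4, and what free RNA adds to them was not tested.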

How the data were processed

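UMI counts per gene and barcode were measured in 1 blastoid and 1 blastocyst library. The authors' deposited matrices hold whole-number counts from Cell Ranger 7.2.0 per the file headers, whereas the submitters' processing notes list Cell Ranger 7.1.0 and Seurat 4.3.0. The genome build and the handling of introns are not given in the sources used here, so no coordinates, sequences or lengths are printed. From the counts, barcodes with at least 500 genes and under 10% mitochondrial UMIs were kept, and the highest Scrublet scores were removed at 0.8% per 1000 barcodes (30 and 6). Depth was 7575395 UMIs over 1957 barcodes and 7029253 UMIs over 944.

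Each library was clustered on its own with scanpy 1.11.5 and leidenalg 0.10.2 (counts per 10000, log scale, 2000 variable genes without the 6 genes, listed genes and markers, 30 components, 15 neighbours, resolution 0.5). A cluster was named from at least 3 markers with at least 100 UMIs and 1.5-fold its level elsewhere, at least 2 times as many as for any other class, and was ribosomal-rich above 5% ribosomal UMIs. The members, lists and rules were chosen with earlier results of these data known. The named genes are the 6, the listed and marker genes, the 5 highest and lowest ratios per comparison with at least 100 UMIs and 50 CPM, and the 5 most like genes of each. Sums over a class carry exact Poisson, ratios exact conditional and shares Clopper-Pearson 95% intervals, for counting error only. Genes with at least 20 UMIs were compared, and 2-fold was the size counted. A count of 0 is read as up to 3. Thinning was without replacement (seed 1). The ratios with their intervals, and the thinning depth, were checked on simulated Poisson counts without variation between nuclei. Clustering, naming of classes, doublet removal and co-detection were not checked in this way. Alternatives covered scaling, depth, filters, clustering, gates and thinning.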

Additional observations from a re-analysis of the deposited data

Results flagged for a closer look

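DCC went opposite ways in 2 contrasts with trophectoderm-like nuclei, 1 in each library. In the blastocyst it was lower in hypoblast-like than in trophectoderm-like nuclei, at a log2 ratio of -0.99997 on 20 and 34 UMIs, whereas in the blastoid it was higher in the LMX1A/LDB2 class than in trophectoderm-like nuclei, at 6.58. The 2 highest trophectoderm-like blastocyst nuclei held 5 of the 34 UMIs each. The LMX1A/LDB2 class is not a hypoblast-like class, each side is 1 library, and the difference was not tested.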

How the results depend on the processing

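Of the ratios of the 6 genes under alternative settings, 281 moved by less than their counting error, 44 moved by more and, where the interval excluded no difference, 5 changed direction. When classes were gated on marker UMIs per barcode, AUTS2 and TENM4 in trophectoderm-like nuclei turned higher in the blastoid (log2 2.29 and 1.73), and CTNNA2 and TENM4 turned lower in hypoblast-like than in trophectoderm-like blastocyst nuclei (-0.18 and -0.37). At resolution 1.0, TENM4 did so too (-0.42), and 1 gene instead of 3 was at least 2-fold higher in epiblast-like nuclei. The gates called some LMX1A/LDB2-class nuclei trophectoderm-like, and they gave 185 hypoblast-like and 187 epiblast-like nuclei. DCC in epiblast-like over trophectoderm-like nuclei, whose interval includes no difference, changed sign at resolution 1.0 (0.35) and with every gene allowed in clustering (0.25). The share of LMX1A/LDB2-class nuclei with all 6 genes was 27.3% when thinned to 2000 UMIs and 74.8% without thinning, against 58.3%, so it is set by depth. At 4-fold, the shares of genes higher were 9.95% (LMX1A/LDB2 over trophectoderm-like), 8.95% (libraries), 6.04% (trophectoderm-like classes), 5.39% (hypoblast-like) and 5.56% (epiblast-like). The ratios over trophectoderm-like blastoid nuclei kept their direction under every one of 11 settings, with a lowest log2 ratio of 2.28 (CTNNA2, gates), and those between libraries under every one of 10. The LMX1A/LDB2 class held the same 139 deep nuclei in each of the 5 settings that clustered the barcodes again. The causes of the other moves were not tested. No paired analysis was possible because each group had 1 library. The check against gene length was not run because no annotation of the files' build was given. Settings that leave out the 2 trophectoderm-like blastoid nuclei or the smaller trophectoderm-like blastocyst cluster were chosen after seeing the data.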

Other observations

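Semaphorin and Eph genes were also measured in the LMX1A/LDB2 class. Of the class 3 semaphorins, which repel axons, SEMA3A was 35.1-fold higher than in trophectoderm-like blastoid nuclei (18.2 to 77.7), and the semaphorin receptors PLXNA2 (16.5-fold, 11.2 to 25.5) and NRP2 (10.7-fold, 7.28 to 16.3) were higher as well, while PLXND1 had 3 and 27 UMIs, a ratio of 0.141 (0.0274 to 0.458). Among Eph receptors, which signal on contact, EPHA4 was at 355 CPM (7.00-fold, 5.76 to 8.56) and EPHA7 at 95.5 CPM (12.1-fold). Their ligand EFNA5 was at 1532 and 602 CPM in the 2 classes, and EFNB2 at 142 and 150.1 CPM, with an interval that includes no difference.

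ADGRL3, a latrophilin that teneurins bind, had its highest level of the 6 classes in trophectoderm-like blastoid nuclei, 1308 CPM, and stood at 181 CPM in trophectoderm-like blastocyst nuclei and at 9.71 CPM in hypoblast-like nuclei. In the 36 hypoblast-like blastocyst barcodes under 4000 UMIs, which entered no comparison at the reported depth limit, AUTS2 was at 242 CPM (158 to 355), and 13 of 14 NCAM1 UMIs came from 1 barcode.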
